A study of Mus musculus with 10 samples.

Results

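The genes described are 10 regulators of the G1 phase of the cell cycle: the D cyclins Ccnd1, Ccnd2 and Ccnd3, the kinases Cdk4 and Cdk6, the inhibitors Cdkn1b, Cdkn1c, Cdkn2a and Cdkn2b, and the growth regulator Myc. Every p63 peak with its midpoint inside one of these genes or within 100 kb of either gene end was taken. That gave 29 distinct peaks of the 8451 in the list. Chromatin immunoprecipitation followed by sequencing was done in 2 mouse keratinocyte lines, MK1 and MK2, with the 4A4 antibody against p63, and the labels name no treatment, genotype or animal age. The 10 libraries of the study were p63, 3 histone marks and input, each once per line, and only the p63 list was used here. It is 1 list made from the 2 p63 libraries. It gives positions without heights, so read depth is unknown, the lines cannot be set against each other, and all comparisons are descriptions with no test. Peaks lay within 100 kb of the keratinocyte genes Krt5 (6), Krt14 (8) and Trp63 (6), but a peak shows binding and not expression, so the list cannot type the cells.

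In G1, D cyclins bind Cdk4 or Cdk6, and the active kinases phosphorylate the retinoblastoma protein, which releases E2F factors and commits the cell to DNA synthesis. INK4 proteins bind Cdk4 and Cdk6 directly, whereas Cip/Kip proteins bind cyclin-kinase complexes. Myc, a basic helix-loop-helix factor that pairs with Max on the sequence CACGTG, raises the transcription of growth and cell cycle genes. p63, a member of the p53 family, maintains the proliferating basal layer of the epidermis, and Cdkn2a is known for rising in keratinocytes that lose p63.

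Promoters were examined first, to see whether p63 lay at the starts of these genes. RefSeq promoter windows (GRCm38.p6) were matched for 6 of the 10 genes, 8 windows in all: Ccnd3 and Cdkn2a with 2 each, and Cdk4, Cdk6, Cdkn1b and Cdkn2b with 1 each. No p63 peak touched any of these 8 windows. The share of all 32851 promoter windows touched by a peak was not computed, so this cannot be read as particular to these genes. The sequences below are the 250 bases before the annotated start of both kinases, which carry matches to the Myc/Max sequence, and of Cdkn2b. Among the 6 matched genes, Cdkn2b has the p63 peak closest to such a start. Distances to the starts of the unmatched genes were not known here. Capitals mark CACGTG.
Cdk4, chr10:127063285-127063534, plus strand: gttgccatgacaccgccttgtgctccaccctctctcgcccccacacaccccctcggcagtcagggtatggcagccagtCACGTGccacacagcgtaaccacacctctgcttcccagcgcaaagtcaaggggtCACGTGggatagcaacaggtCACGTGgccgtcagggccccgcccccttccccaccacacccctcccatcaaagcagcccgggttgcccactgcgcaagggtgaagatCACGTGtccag
Cdk6, chr5:3343643-3343892, plus strand: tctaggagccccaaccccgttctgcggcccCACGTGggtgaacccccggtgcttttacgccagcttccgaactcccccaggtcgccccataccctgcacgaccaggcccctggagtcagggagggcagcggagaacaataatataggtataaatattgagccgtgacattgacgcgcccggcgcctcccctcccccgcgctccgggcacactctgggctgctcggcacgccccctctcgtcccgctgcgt
Cdkn2b, chr4:89311033-89311282, minus strand: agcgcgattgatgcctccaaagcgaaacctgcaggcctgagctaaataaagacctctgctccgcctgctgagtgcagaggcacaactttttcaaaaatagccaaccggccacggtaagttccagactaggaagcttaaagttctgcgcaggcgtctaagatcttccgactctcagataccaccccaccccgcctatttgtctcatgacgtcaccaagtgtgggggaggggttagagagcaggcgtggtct
The Cdk4 sequence contained CACGTG 4 times, starting 172, 118, 98 and 11 bases before the start. Of 32851 mouse promoter windows of the same length, 6.02% held CACGTG at least once and 7 windows (0.0213%) held it 4 or more times. The cut of 4 equals the count at Cdk4, and the 7 windows include that of Cdk4. That share is therefore a description only. Cdk6 held it once, 220 bases before the start, and Cdkn2b held none. The windows of Ccnd3, Cdkn1b and Cdkn2a held none either, so CACGTG was in 2 of the 8 member windows. The motifs were searched on both strands, and overlaps between different motifs were allowed. The p53/p63 family half-site was found in 0 of the 8 member windows and in 7.13% of all windows. A separate pattern, 2 copies of CNNG with 6 bases between, was in 5 of 8 (62.5%) and in 63.5% of all. The AP-1 sequence TGANTCA was in 0 of 8 and in 6.75% of all. The E2F sequence TTCCCGC was in 1 of 8, the upper of the Cdkn2a windows, and in 3.82% of all. These matches are letters in a window and not measured sites. A missing match says only that these letters are not in that window.

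All 10 genes had at least 1 p63 peak inside or within 100 kb, where 55.2% of 21779 protein-coding genes did. The 10 genes were chosen with earlier results of these data known. Counts ran from 1 peak at Ccnd2, Cdk6 and Cdkn1b to 6 at Ccnd3 and Myc, with a median of 3.5 against 1 over all protein-coding genes. At least 2 peaks were found at 7 genes (34.0% of protein-coding genes), at least 3 at 6 (20.3%), at least 4 at 5 (11.8%), at least 5 at 4 (6.76%) and 6 at 2 (3.80%). Cdkn2a and Cdkn2b hold the same 5 peaks, so that locus enters these counts and the median for both genes. Within 25 kb, 7 of the 10 had a peak, against 29.7% of protein-coding genes. The genes without one were both kinases and Cdkn1b. Within 50 kb it was 8 of 10 against 40.7%, within 200 kb 10 of 10 against 70.3% and within 500 kb 10 of 10 against 85.4%. Inside the gene body, Ccnd2 and Cdkn2b had a peak and the other 8 did not, against 13.4% of protein-coding genes with one. Of the 29 peaks, 14 lay below the lower end of the nearest of these genes, 13 above the upper end and 2 inside. The RefSeq promoter entries also gave the strand of 6 genes, and for these "upstream" and "downstream" are used. For Ccnd1, Ccnd2, Cdkn1c and Myc, peaks are placed as below the lower or above the upper coordinate of the gene. Positions are 1-based on mm10, and distances are those of peak midpoints.

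**Figure D1:**
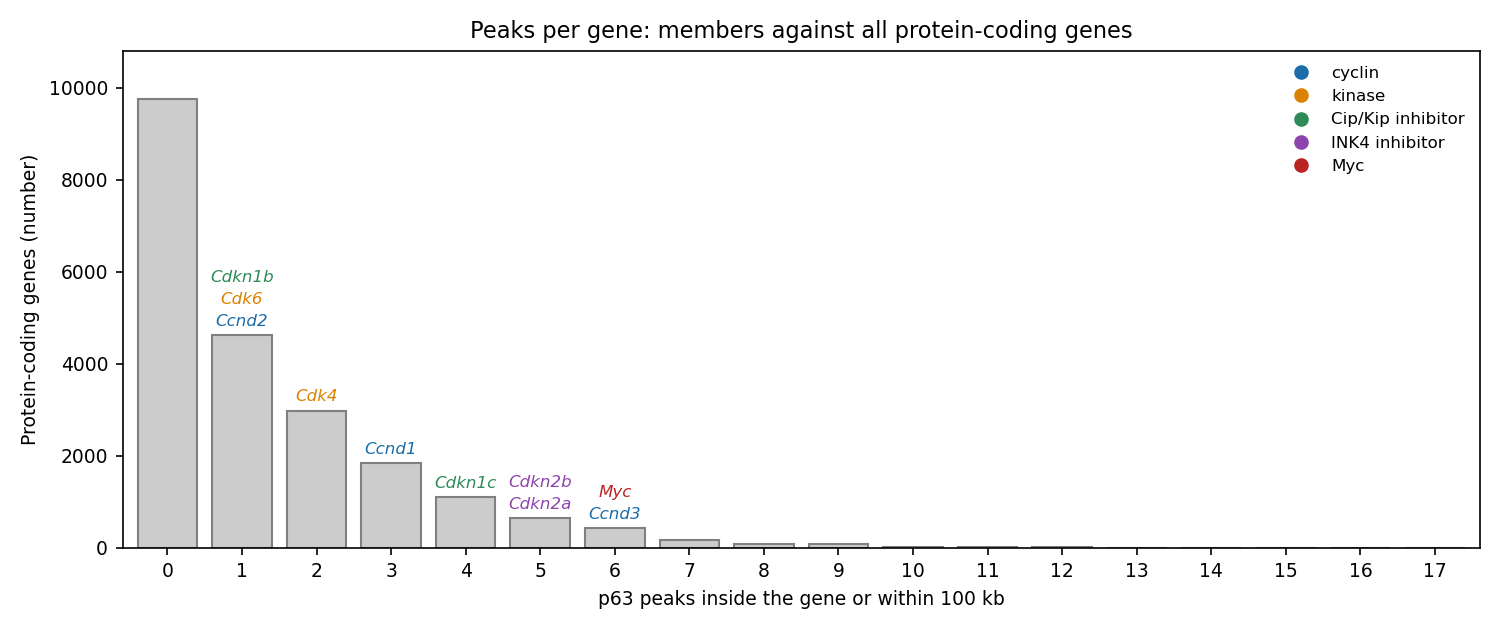
Number of protein-coding genes (vertical axis) by the number of p63 peaks inside the gene or within 100 kb (horizontal axis), with each of the 10 genes written above the bar it belongs to. Ccnd3 and Myc stand at 6 peaks, a count that 3.80% of protein-coding genes reached or passed, and Ccnd2, Cdk6 and Cdkn1b stand at 1.

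The D cyclins differed among themselves: Ccnd3 had 6 peaks, Ccnd1 had 3 and Ccnd2 had 1. Ccnd1 (chromosome 7, 144929931 to 144939831) encodes cyclin D1, the D cyclin most tied to growth factor signals. Its 3 peaks lay outside the gene. One, 387 bp wide, lay 46.6 kb below it at 144883098 to 144883484, and its nearest gene was Fgf15, a fibroblast growth factor gene, at 13.2 kb. The other two lay 24.3 and 31.7 kb above Ccnd1, at 144964011 to 144964267 and 144971389 to 144971653. They were 257 and 265 bp wide, 7.12 kb of DNA separated them, and Ccnd1 was their nearest protein-coding gene.

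Ccnd2 (chromosome 6, 127125162 to 127152188) encodes cyclin D2. Its only peak was inside the gene, 1.85 kb from the upper end, at 127150237 to 127150440. At 204 bp it was narrow, as 8.78% of all peaks were narrower. It also stood alone, with 180 kb to the next peak. The long noncoding gene 9330179D12Rik covers the same position, so the peak cannot be assigned to one of the 2 genes.

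Ccnd3 (chromosome 17, 47505051 to 47599689) encodes cyclin D3. It had 5 peaks upstream and 1 beyond its far end, and none was nearer to Ccnd3 than to another gene. The closest, 404 bp wide at 47484482 to 47484885, lay 20.4 kb upstream of the first annotated start, inside Taf8, which encodes a subunit of the general factor TFIID. Another 4 lay 53.7 to 67.9 kb upstream, inside AI661453, as 2 close pairs. One pair (385 and 234 bp wide) had 1.32 kb between its peaks. The other pair (216 and 171 bp wide) had 207 bp between them, the shortest gap among the 10 genes. The peak on the far side, 357 bp wide at 47651962 to 47652318, lay 52.5 kb above the gene inside Usp49, a deubiquitinase gene. The window of Ccnd3 held 11 other protein-coding genes, against a median of 4 over all protein-coding genes.

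The kinases had 2 peaks at Cdk4 and 1 at Cdk6. Cdk4 (chromosome 10, 127063535 to 127067288) encodes the catalytic partner of the D cyclins. It had 2 peaks, both downstream: one of 469 bp at 127126496 to 127126964, 59.4 kb beyond the gene end, and one of 228 bp at 127144054 to 127144281, 76.9 kb beyond it. Other genes were closer to both. Os9, which encodes a lectin of the endoplasmic reticulum, was 5.57 kb from the wider peak, and B4galnt1, which encodes a ganglioside synthase, was 21.0 kb from the narrower. The start whose upstream sequence holds 4 CACGTG matches thus had no p63 peak within 50 kb.

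Cdk6 (chromosome 5, 3341004 to 3531008) encodes the other partner of the D cyclins and, at 190 kb, was the longest of the 10 genes. It had no peak in its body and 1 within 100 kb, at 3301156 to 3301329, 42.7 kb upstream of the annotated start and within the long noncoding gene Gm36470. That peak was 174 bp wide, and 1.48% of all peaks were narrower. The next peak on the chromosome was 723 kb away, the farthest for any of the 29.

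Among the Cip/Kip inhibitors, Cdkn1c had 4 peaks and Cdkn1b had 1. Cdkn1b (chromosome 6, 134920401 to 134925525) encodes p27, which holds cells in quiescence. Its peak, 320 bp wide at 134822371 to 134822690, lay 97.9 kb upstream, just inside the window, and 7.60 kb from Crebl2. The next peak below it was just outside, at 103 kb. With no peak nearer than 97.9 kb, Cdkn1b had the most distant nearest peak of the 10 genes.

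Cdkn1c (chromosome 7, 143458339 to 143461059) encodes p57 and lies in an imprinted cluster with Kcnq1 and Slc22a18. Its closest peak, 267 bp wide at 143476114 to 143476380, was 15.2 kb above the gene, inside the transporter gene Slc22a18. The other 3 lay below it inside Kcnq1, a potassium channel gene. A pair of 440 and 294 bp at 143385356 to 143385795 and 143386230 to 143386523 had 434 bp between its peaks and lay 72.8 and 72.0 kb from Cdkn1c. A 213 bp peak lay at 97.2 kb, and the next 2 were just outside the window at 102 and 108 kb. Cdkn1c was not the nearest gene of any of its 4 peaks.

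The INK4 inhibitors Cdkn2a and Cdkn2b are neighbours on chromosome 4 and shared the same 5 peaks. Cdkn2a (89274473 to 89294619) encodes the kinase inhibitor p16INK4a and, from another reading frame, the p53 activator p19ARF. Cdkn2b (89306289 to 89311032) encodes the related inhibitor p15INK4b. A peak of 303 bp at 89308227 to 89308529 lay inside Cdkn2b, 2.65 kb downstream of its start (the sequence before that start is printed above) and 13.8 kb upstream of the upper Cdkn2a start. The long noncoding gene Gm12610 covers this peak too, and also the next 2, of 162 and 250 bp, which lay 39.7 and 42.2 kb upstream of Cdkn2b with 2.30 kb between them. The 162 bp peak was the narrowest of the 29, and 0.355% of all peaks were narrower. On the other side, a 280 bp peak at 89234814 to 89235093 lay 39.5 kb beyond the end of Cdkn2a. A 426 bp peak at 89207792 to 89208217 lay 66.5 kb beyond it and was nearer to Mtap, a gene of methionine salvage. A count of 5 or more peaks was reached by 6.76% of protein-coding genes, and since the same 5 peaks serve both genes they are 1 case and not 2.

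**Figure D2:**
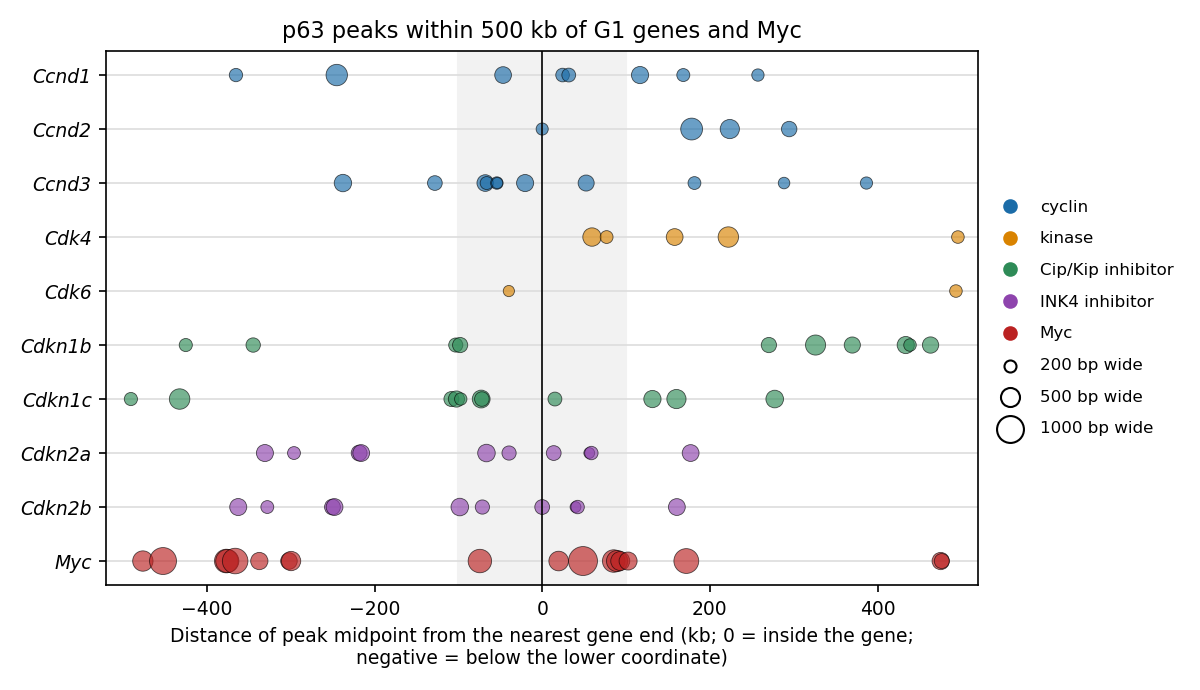
Distance of each p63 peak midpoint from the nearest end of its gene in kb (horizontal axis, 0 inside the gene, negative below the lower coordinate), with 1 row per gene, out to 500 kb. Circle area is proportional to peak width and the shaded band is the window of 100 kb. Cdk6 has 2 peaks out to 500 kb and Myc has 18, with the largest circles in the Myc row.

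Myc had 6 peaks within 100 kb, and each was 500 bp or wider. Myc (chromosome 15, 61985341 to 61990361) had 1 peak below it and 5 above it. The peak below, 760 bp wide at 61910620 to 61911379, lay 74.3 kb away. The first above, 531 bp at 62009749 to 62010279, lay 19.7 kb from the gene and was the closest of the 6. Next came the widest of the 29 peaks, 1160 bp at 62038482 to 62039641, 48.7 kb above Myc. In the whole list 10 peaks were wider. It lay inside Pvt1, a long noncoding gene next to Myc. The last 3, of 700, 622 and 500 bp, formed a chain inside Pvt1 from 62075309 to 62083738, with 3.36 and 3.25 kb between them and 85.3 to 93.1 kb from Myc. The next peak above the chain fell just outside the window, at 102 kb. No other protein-coding gene lay in the window, and Myc was the nearest protein-coding gene of all 6 peaks. Of 1175 protein-coding genes alone in their window, 26.3% had a peak and 1.36% had 6 or more.

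Peaks at Myc were wider than those at the other 9 genes. The 6 peaks at Myc had a median width of 661 bp and ran from 500 to 1160 bp. The 23 peaks at the other genes had a median of 267 bp and ran from 162 to 469 bp, so the 2 sets did not overlap. The whole list had a median of 305 bp and an interquartile range from 242 to 392 bp, and 10.8% of its peaks were 500 bp or wider. That width was set after the values were seen and equals the narrowest Myc peak. Of 827 protein-coding genes with 6 or more peaks within 100 kb, 1 (0.121%), Myc itself, had a median peak width as high as 661 bp. The median of those genes' median widths was 321.5 bp. Outside Myc, 15 of 23 peaks were narrower than the list median, where 50.0% of all peaks were. No score or height is in the list, so how width relates to signal at these peaks was not tested.

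**Figure D3:**
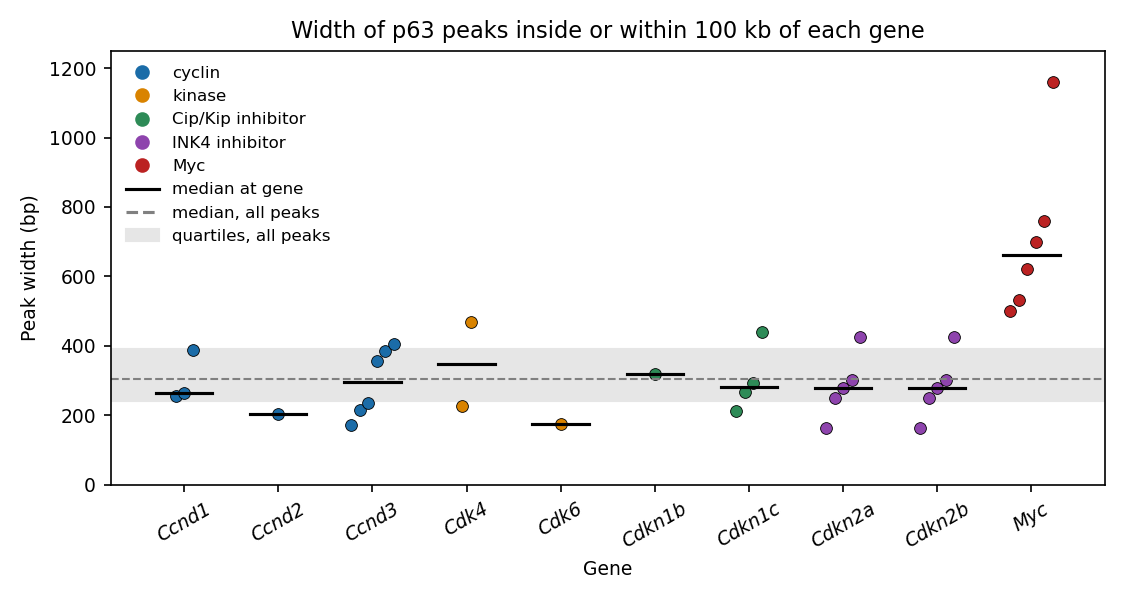
Width in bp (vertical axis) of each p63 peak inside or within 100 kb of each gene, 1 point per peak, with the median per gene as a black bar; the dashed line and grey band are the median and quartiles of all 8451 peaks. Every Myc point lies at 500 bp or above and every other point at 469 bp or below; Cdkn2a and Cdkn2b show the same 5 peaks.

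Wide peaks at Myc were also found farther out. Within 500 kb Myc had 18 peaks, 9 on each side, a count reached by 2.09% of protein-coding genes, whose median was 5. Below Myc, 8 of these lay 300 to 476 kb away, between 61508700 and 61686041, and 225 kb without a peak separated them from the peak at 74.3 kb. The widest of the 8 was 1006 bp. Of the 18, 13 (72.2%) were 500 bp or wider and the narrowest was 311 bp. The 18 include the 6 peaks within 100 kb, which set this width and so pass it by construction. Beyond 100 kb, 6 of the 8 below Myc were 500 bp or wider. The 4 above it were 449, 853, 413 and 311 bp wide. Within the same 500 kb the other 9 genes had 61 distinct peaks, of which 7 (11.5%) were 500 bp or wider, with a median of 311 bp.

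Classes were compared by the peaks per length of DNA searched. The kinases had 3 peaks in 594 kb of searched DNA (0.505 per 100 kb), the Cip/Kip inhibitors 5 in 408 kb (1.23), the cyclins 10 in 732 kb (1.37), the INK4 inhibitors 5 in 237 kb (2.11) and Myc 6 in 205 kb (2.93). The mean over all protein-coding genes, each with its own window, was 0.573 per 100 kb. Within classes the genes spread widely. Cyclins ran from 0.440 per 100 kb at Ccnd2 to 2.04 at Ccnd3, the Cip/Kip genes from 0.488 at Cdkn1b to 1.97 at Cdkn1c, and the kinases from 0.256 at Cdk6 to 0.982 at Cdk4. The ranges of cyclins, Cip/Kip genes and kinases overlapped. Cdkn2a (2.27) and Cdkn2b (2.44) share their peaks at 1 locus and lay near Ccnd3, and Myc is 1 gene. With 1 to 3 genes per class, no order of the classes can be read. The place of Myc depended on the window: at 50 kb the INK4 genes had a mean of 2.5 peaks per gene and Myc had 2. That mean counts a peak shared by Cdkn2a and Cdkn2b for each of them. The INK4 genes had 4 distinct peaks at 50 kb. All 4 inhibitors together had 10 peaks (1.55 per 100 kb), as many as the 3 cyclins. Median widths were 261 bp at the cyclins, 228 at the kinases, 294 at the Cip/Kip and 280 at the INK4 genes, all below the 305 bp of the whole list.

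**Figure D4:**
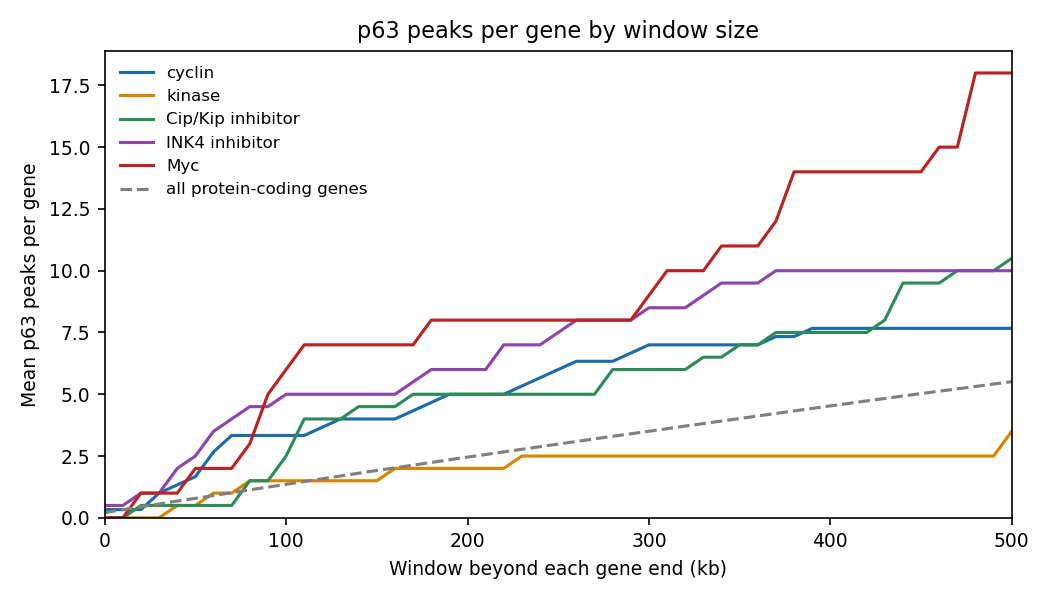
Mean number of p63 peaks per gene (vertical axis) within windows from 0 to 500 kb beyond the gene ends (horizontal axis), for each class and for all protein-coding genes (dashed). At 500 kb the means were 18 for Myc, 10.5 for the Cip/Kip and 10 for the INK4 inhibitors, 7.67 for the cyclins, 5.51 for all protein-coding genes and 3.5 for the kinases. A peak shared by Cdkn2a and Cdkn2b counts for each of them.

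Of the 29 peaks, 6 lay inside or within 25 kb of the closest of the 10 genes, 7 at 25 to 50 kb and 16 farther out. Counting each peak once for every gene in reach, 20 of 34 pairs of peak and gene (58.8%) were over 50 kb apart, against 41.8% over all protein-coding genes. For 14 peaks a gene of the 10 was the nearest protein-coding gene: all 6 at Myc, 4 at the INK4 genes, 2 at Ccnd1 and 1 each at Ccnd2 and Cdk6. For the other 15 peaks it was 1 of 11 other genes. Spacing varied between the genes. A total of 15 peaks (51.7%) had another peak midpoint within 10 kb, against 29.1% of all peaks, and the median distance to the next peak was 7.38 kb against 28.4 kb. Close neighbours made up 6 of the 10 cyclin peaks, 4 of 5 at the Cip/Kip genes, 2 of 5 at the INK4 genes, 3 of 6 at Myc and 0 of 3 at the kinases. Peaks in one group count for each other, so these shares rest on few loci.

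Other genes of the G1 to S transition and of the Myc network showed peaks in 31 of 40 cases within 100 kb (77.5%, against 55.2% of protein-coding genes) and in 20 of 40 within 25 kb (50.0%, against 29.7%). Their median was 2 peaks. The 40 genes were chosen with earlier results of these data known, so the difference in shares is a description only. By role, a peak lay within 100 kb of 5 of 7 other cyclin and kinase genes, 2 of 3 inhibitors, 3 of 3 genes of the retinoblastoma family, 6 of 10 E2F and DP genes, 5 of 6 genes of turnover and activation and 10 of 11 Myc network genes. The highest counts were 7 at Cdkn1a, the gene of the p53-induced inhibitor p21, and 7 at Rb1, the gene of the retinoblastoma protein, with 4 inside its body. E2f6, which encodes a repressive E2F, had 6, and Fbxw7, which encodes a ubiquitin ligase subunit that degrades Myc and cyclin E, had 5, all inside the gene. Max, the gene of the Myc partner, had 5 peaks of 212 to 326 bp, all narrower than every Myc peak. In the whole list, 10.8% of peaks were as wide as the narrowest Myc peak or wider. Ambra1, whose product promotes the breakdown of D cyclins, had 4 and is named as the first in the alphabet of several genes with that count. At Cdkn1a and Rb1 1 peak each reached 500 bp, and at E2f6, Fbxw7, Max and Ambra1 0 did.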

How the data were processed

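Per the labels' protocols, chromatin from the mouse keratinocyte lines MK1 and MK2 was sonicated, precipitated with the 4A4 antibody and read as 50 bp single ends. Bowtie 1.1.1, SAMtools 1.1 and the build mm10 are listed in the submitters' processing notes, which give no settings here. Per the labels, the authors made 1 peak list by IDR, which keeps peaks that rank alike in 2 replicates, from both p63 libraries. The deposited values are peak starts and ends in bp, with no score or other measurement. For the peak caller and its thresholds nothing is given in the sources used here. Peaks missed through low depth, or seen in 1 line alone, cannot be told apart from sites without p63.

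Starts were made 1-based. Genes came from the RefSeq table of GRCm38.p6, whose chromosome coordinates are those of mm10, without rows ending below 3 Mb on chromosomes other than Y (scaffold positions). All 10 genes, the 40 further pathway genes and the marker genes matched by symbol. Peaks were counted by midpoint inside the gene or within 100 kb with Python 3.11.15, pandas 2.3.3 and numpy 2.4.6, and the counting was tested on simulated data. Alternatives were other windows, overlap by any base, wide peaks only, joined peaks and nearest genes. Named genes were the 10 members, the protein-coding gene nearest to each of their peaks, the 6 pathway genes with most peaks (ties alphabetical) and Krt5, Krt14 and Trp63. Long noncoding genes covering a peak were named after their positions were seen. The members and lists were chosen with earlier results of these data known. Peak sequences were not analysed here.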

Additional observations from a re-analysis of the deposited data

How the results depend on the processing

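Counts followed the window. At 25 kb there were 6 distinct peaks (median 1 per gene): cyclins 3, kinases 0, Cip/Kip 1, INK4 1 and Myc 1, with 6475 protein-coding genes and 20 of the other pathway genes having a peak. At 50 kb there were 13 (median 1): cyclins 5, kinases 1, Cip/Kip 1, INK4 4 and Myc 2. At 200 kb the median was 5.5 and the Cip/Kip genes had 10. At 500 kb there were 79 (median 10): cyclins 23, kinases 7, Cip/Kip 21, INK4 10 and Myc 18, with 18596 protein-coding genes having a peak. With only peaks at least as wide as the list median there were 14 (median 1): cyclins 4, kinases 1, Cip/Kip 2 and INK4 1, while Myc kept 6. Counting a peak only for its nearest protein-coding gene left 6 genes with a peak and 14 peaks (median 1): cyclins 3, kinases 1 and Cip/Kip 0. Fewer peaks follow from the construction of the narrower settings. Any-base overlap and joining peaks less than 1 kb apart changed no count of the 10 genes by more than 1.5 times. Myc, 1 gene, had more peaks than the mean per gene of any other class at 100 and 500 kb. As a single gene, Ccnd3 equalled Myc at 100 kb (6 peaks each). At 200 kb Ccnd3 and Cdkn1c did so (8 each). At 50 kb the INK4 genes had more (mean 2.5 against 2), and at 80 kb the INK4 genes (4.5) and the cyclins (3.33) had more than Myc (3). The INK4 means count a peak shared by Cdkn2a and Cdkn2b for each of them. At 25 kb Myc, each cyclin and the shared INK4 locus had 1. No paired analysis was possible because the list merges both lines, and leaving out a library was not possible for the same reason. Depth is unknown, so a gene without a nearby peak may have lacked reads.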
